A study of Mus musculus with 4 samples.

Results

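The genes described here code for the cytosolic ribosomal proteins of the mouse. They were chosen by symbol from the deposited gene list: every Rpl or Rps gene with a number, with Rplp0, Rplp1, Rplp2 and Rpsa, and without the Rps6k kinases and names marked as pseudogenes. The rule used no measured value and gave 86 of 32285 genes. Of these, 46 code for the large subunit, 31 for the small subunit and 8 for paralogs of a standard subunit. The last, Rps19bp1, codes for a protein that binds the subunit Rps19 and is not itself part of the ribosome. The rule left out 5 pseudogene symbols and 10 kinases.

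Blood mononuclear cells were taken from mice of 2 inbred strains, BL/6 and SM/J, aged 12 or 20 months, and profiled by 3′ single-cell RNA sequencing on the 10x platform. Blood was drawn from the heart, and the mononuclear fraction came from density centrifugation, followed by a slow spin against platelets and lysis of red cells, per the labels. No treatment, transgene or sex was given. Both ages of a strain were pooled into 1 tagged 10x sample, so that strain and 10x sample cannot be told apart. Each strain and age is 1 library, and no p-value was computed. The 3 tag oligos of each library split its cells into 3 aliquots. The labels do not say whether an aliquot is 1 animal, so the range over aliquots is given as a measure of repeatability and not as biological replication.

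A ribosome is built from a large and a small subunit, each a ribosomal RNA scaffold bound by many proteins, nearly all present in a single copy. The messengers of these proteins are abundant in cells that grow or are ready to grow. Most of them start with a C followed by an unbroken run of pyrimidines, the 5′ terminal oligopyrimidine (TOP) motif, through which the growth kinase mTOR controls their translation. Naive lymphocytes are small cells with little cytoplasm, in which ribosomal protein messengers make up much of the messenger pool.

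A run of pyrimidines at the annotated start was found in a minority of these genes, and 4 such starts are shown to illustrate the motif, chosen from genes described below. Each window runs from 40 bases before to 20 bases from the start site (RefSeq, GRCm38.p6), 5′ to 3′ on the gene's own strand, with the pyrimidine run at the start in capitals. The windows lie at chr17:33955646-33955705 (Rps18, minus strand), chr3:90213629-90213688 (Rps27, minus strand), chr4:86857348-86857407 (Rps6, minus strand) and chr14:18270967-18271026 (Rpl15, minus strand).
Rps18: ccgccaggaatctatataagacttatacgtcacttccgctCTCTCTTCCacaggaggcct
Rps27: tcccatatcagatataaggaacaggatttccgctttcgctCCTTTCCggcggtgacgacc
Rps6: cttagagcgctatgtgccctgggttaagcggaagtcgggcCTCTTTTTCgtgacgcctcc
Rpl15: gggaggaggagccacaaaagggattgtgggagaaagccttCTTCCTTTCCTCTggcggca
The promoter table held 66 of the 86 members. In 13 of these 66 (19.7%) the annotated start was a C that opened a run of at least 5 pyrimidines, against 673 of all 27025 promoters (2.49%). In a window of 300 bases, read on both strands, the letters CCGGAAG were found in 37.9% of members against 9.12% of all promoters, and AAGATGG in 13.6% against 6.48%. These matches are descriptions of the annotated windows. The annotated starts of Rplp0, Rpl6, Rpl12, Rpl10 and Rps2, also described below, did not themselves open such a run. A C that opened such a run within 10 bases of the start was found in 37 members (56.1%). Over all promoters it was found in 30.8%. Rpl6, Rpl12 and Rps2 were among the 37 members. The motif can be missed where the annotated start is not the one used.

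The libraries held 3551 cells (BL/6, 12 months), 3272 (BL/6, 20 months), 2580 (SM/J, 12 months) and 2896 (SM/J, 20 months), with between 14250603 and 30627357 unique molecular identifiers (UMIs, 1 per counted molecule), and 11596 cells passed the filters. Pairs of libraries shared 0 to 3 cell barcodes. Clustering without the 86 genes gave 26 clusters. All but cluster 20 (92 cells) were named from markers, and a named cluster is only like the cell type whose name it carries. Most B cells and monocytes lay in clusters held mainly by 1 strain, while B cell cluster 13 and the clusters of T cells, NK cells, macrophages and plasmacytoid dendritic cells held both strains. Most BL/6 B cells lay in cluster 0 (1505 of 2005 at 12 months), SM/J B cells in clusters 2 and 9, and 848 of the 1612 SM/J B cells at 20 months in cluster 3. The B cells of that last library also had the most UMIs, with a median of 9613 per cell against 3433 to 4203.5 in the other 3. Classical and nonclassical monocytes of the 2 strains lay mostly in different clusters (4 and 17, and 1 and 6).

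Ribosomal protein messengers took a different share of the UMIs in each lineage, with T and B cells above the other main lineages in all 4 libraries. In T cells the share was 24.3% (BL/6, 12 months), 26.2% (BL/6, 20 months), 33.8% (SM/J, 12 months) and 30.5% (SM/J, 20 months). B cells followed with 20.7%, 18.6%, 28.1% and 27.7% in the same order of libraries. Nonclassical monocytes, the patrolling cells of the blood, were lowest of the 7 main lineages in every library at 11.2%, 9.58%, 9.13% and 8.49%. Between these ends the order was not fixed. Classical monocytes had 16.7%, 15.9%, 13.8% and 15.2%, and NK cells 15.5%, 13.5%, 17.6% and 17.2%. Plasmacytoid dendritic cells stood below B cells and above the rest in both BL/6 libraries (19.5% and 17.6%) and above nonclassical monocytes alone in SM/J at 20 months (13.3%). Macrophages ranged from 13.3% to 15.2%. Platelets, which carry no nucleus, had 1.16% and 1.39% in the BL/6 libraries. The aliquots of a library lay close together in B cells, which spanned 20.6% to 20.8%, 18.4% to 18.8%, 27.9% to 28.3% and 27.3% to 27.9%. In some smaller lineages they lay further apart than the gaps to the neighbouring lineages. They spanned 15.2% to 19.8% in plasmacytoid dendritic cells of BL/6 at 20 months. In BL/6 at 12 months they spanned 14.0% to 16.8% in NK cells and 11.7% to 15.4% in macrophages. In these cases they overlapped the aliquots of the lineage next above, so that this order is within the spread. Other lineages stood apart. In BL/6 at 12 months plasmacytoid dendritic cells (18.6% to 20.1%) lay above NK cells. In SM/J at 20 months NK cells (15.5% to 18.5%) lay above plasmacytoid dendritic cells (12.3% to 15.1%).

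**Figure D1:**
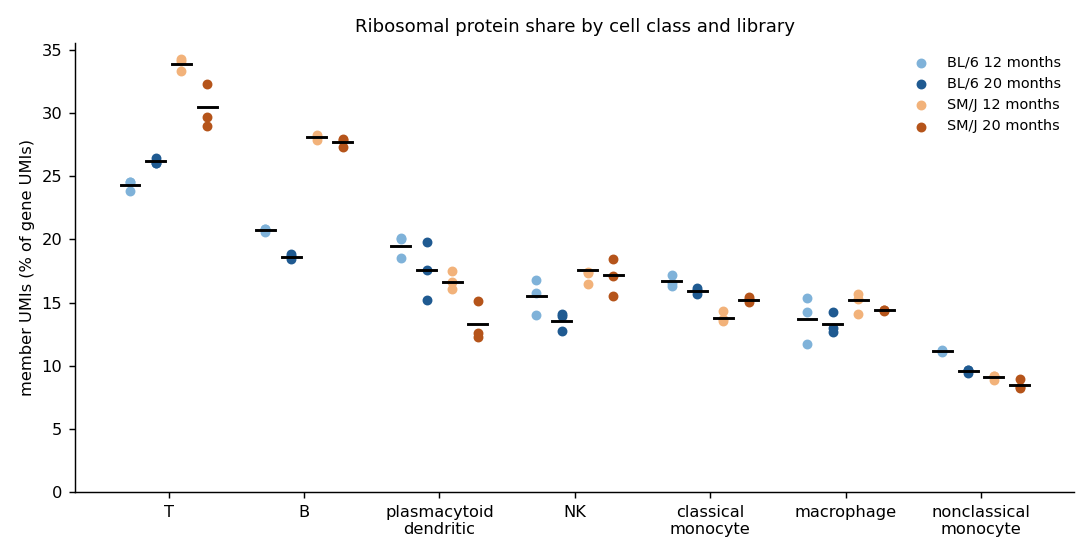
Share of a lineage's UMIs that came from the 86 ribosomal protein genes (vertical axis, percent) in 7 lineages of the 4 libraries; short horizontal bars give the library value and dots its aliquots. T and B cells are highest in every library, the SM/J bars stand above the BL/6 bars in both, and the nonclassical monocytes are lowest, between 8.49% and 11.2%.

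Between ages the share differed in opposite directions in the T cells of the 2 strains. In BL/6 it was 1.89 percentage points higher at 20 months (95% interval 1.81 to 1.96, counting error only), with aliquots of 23.8%, 24.5% and 24.5% at 12 months and 26.0%, 26.1% and 26.5% at 20 months. In SM/J it was lower, with a change of -3.33 points ( -3.45 to -3.22), with aliquots of 33.3%, 34.1% and 34.3% at 12 months and 29.0%, 29.7% and 32.3% at 20 months. The aliquots of the 2 ages did not overlap in either strain. With cells of at most 5% mitochondrial UMIs the BL/6 change was 3.89 points. Classical monocytes went the other way round: the change with age was -0.815 points in BL/6 (-0.874 to -0.757) and 1.43 points in SM/J (1.32 to 1.53), again without overlap of aliquots. The BL/6 value depended on 1 aliquot, since it was -0.514 points without aliquot 1 of the 12-month library. Clustering at 1000 UMIs per cell left 0.678 points in SM/J. In B cells the share was lower at 20 months by 2.11 points in BL/6 (change -2.11, -2.16 to -2.07). SM/J B cells changed by -0.358 points (-0.398 to -0.319), but their aliquots overlapped, and the sign turned without clusters 3 and 22 (0.539), when cells were clustered at 1000 UMIs (0.434) and without mitochondrial and antigen receptor genes in the total (0.242). With B cell clusters weighted equally it was -1.39 points. Without aliquot 3 of the 20-month library the SM/J change was -0.164 points. Nonclassical monocytes changed by -1.58 points in BL/6, without overlap, and by -0.636 in SM/J, where aliquots overlapped and the change was -0.0238 points without cluster 23. That cluster of 55 cells stood apart among the nonclassical monocytes: 63.6% of its cells had a UMI of at least 1 of 6 B cell markers, at a summed 4307 counts in CPM, defined below, with none of the 6 at 0, against 31.6% and 128 CPM in cluster 6. The part of these B cell transcripts in the share was otherwise not tested. In NK cells the aliquots of the 2 ages overlapped in both strains, with changes of -1.97 and -0.424 points. Plasmacytoid dendritic cells changed by -1.93 points in BL/6, where aliquots overlapped, and by -3.27 points in SM/J (-3.42 to -3.12), from 50 to 48 cells, where they did not.

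The T cell values moved together with the makeup of the T cells. Cluster 7, led by the naive T cell genes Lef1 and Tcf7, and cluster 12, with Cd8a and Cd8b1, had high shares in every library: 31.0%, 28.2%, 36.5% and 34.9% in cluster 7 and 30.2%, 30.1%, 36.1% and 36.3% in cluster 12. Cluster 16, which also had Cd8a and Cd8b1 among its leading genes and was set apart by the effector genes Ccl5 and Gzmb, had 17.2%, 19.0%, 24.4% and 22.7%, and cluster 10, with Ikzf2, Icos and Cd4, had 20.2%, 18.5%, 24.9% and 24.8%. In both strains the clusters thus kept a gap between the high pair and the low pair. Their proportions differed between ages. In BL/6, cluster 16 made up 38.0% of T cells at 12 months and 9.64% at 20 months, while cluster 7 went from 19.7% to 41.6%. In SM/J, cluster 7 went from 44.2% to 22.4% and cluster 10 from 20.3% to 42.1%. Within clusters the change with age in BL/6 was -2.78 points in cluster 7, -1.72 in cluster 10, -0.0404 in cluster 12 and 1.77 in cluster 16. In SM/J it was -1.61, -0.0377, 0.177 and -1.68 points in that order. With the clusters weighted equally the T cell change was -0.690 points in BL/6, opposite in sign to the value over all T cells, and -0.788 in SM/J.

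**Figure D2:**
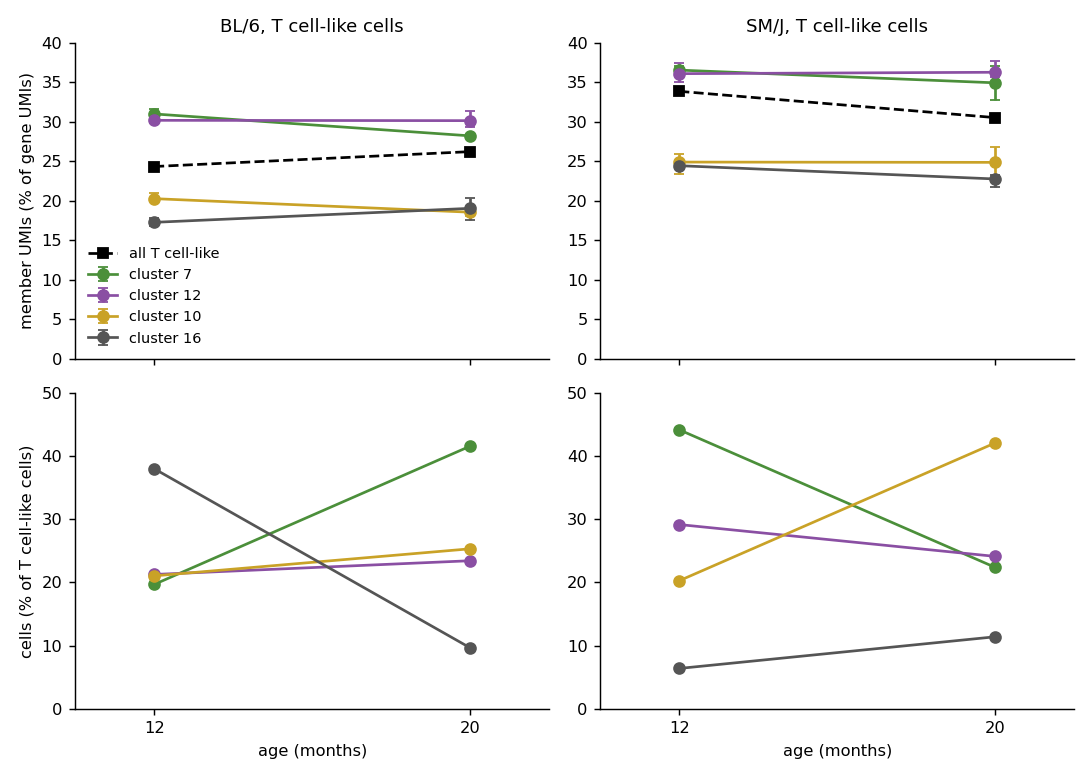
Top: ribosomal protein share of UMIs (percent) in all T cells and in T cell clusters 7, 12, 10 and 16 at 12 and 20 months, with bars for the range over aliquots; bottom: each cluster as a percentage of T cells; BL/6 left and SM/J right. Clusters 7 and 12 lie above clusters 10 and 16 in each library, and the proportion of cluster 7 goes from 19.7% to 41.6% in BL/6 and from 44.2% to 22.4% in SM/J.

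Between strains, the T and B cells of SM/J gave a larger part of their UMIs to ribosomal proteins than those of BL/6 at both ages, and the monocytes a smaller part. In B cells the share was 7.34 points higher in SM/J at 12 months (7.30 to 7.39) and 9.10 points higher at 20 months (9.05 to 9.14), a ratio of 1.35 and 1.49. In T cells the gap was 9.52 points (9.44 to 9.61) at 12 months and 4.31 points (4.20 to 4.41) at 20 months. With T cell clusters weighted equally the gap was 5.82 and 5.72 points, and cluster 16, with a low share, made up 38.0% of BL/6 and 6.39% of SM/J T cells at 12 months. Classical monocytes of SM/J were lower, with a difference of -2.95 points (-3.04 to -2.86) and -0.710 points (-0.795 to -0.624), and nonclassical monocytes likewise, with -2.03 and -1.09 points. No aliquot of one strain overlapped those of the other in these 4 lineages. Plasmacytoid dendritic cells of SM/J were also lower, by differences of -2.88 and -4.22 points without overlap. Macrophages and NK cells of SM/J were higher, by 1.497 and 1.12 points and by 2.10 and 3.65 points, with overlap of aliquots at 12 months and none at 20 months in both. The gap in B cells did not come as one value for all clusters. In cluster 0, which held 34 SM/J cells with aliquots that overlapped those of BL/6, it was 3.46 points at 12 months, in cluster 13 it was 4.16 points, and in cluster 2, which held 25 BL/6 cells, it was -1.32 points. With these 3 clusters weighted equally it was 2.10 points at 12 months. At 20 months cluster 2 alone could be compared, with 20 BL/6 cells, and its value was 3.05 points with overlapping aliquots. All 4 T cell clusters were higher in SM/J at both ages, by 3.72 to 7.17 points. For the monocytes, clusters of enough cells in both strains were lacking, so that strain and cluster cannot be told apart. The classical value at 20 months rests on 99 SM/J cells and was -1.499 points when cells were clustered at 1000 UMIs. The nonclassical value at 12 months was -1.24 points with cells of at most 5% mitochondrial UMIs. That limit also changed the naming of clusters. A cluster of 36 cells led by Cd22 and by Sox5, which also led B cell clusters, was named nonclassical monocyte. A cluster of 352 cells with Ccr2 and Tgfbi among its leading genes stayed unnamed. The mitochondrial part of UMIs in B cells was 5.32%, 4.90%, 5.58% and 5.82%, and its part in these differences was otherwise not tested. Per B cell, the median count of ribosomal protein UMIs was 709, 616, 1111 and 2762.

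Gene by gene, few members differed between ages by the size used here. A member counts as higher or lower where the log2 ratio of CPM + 1 was at least 0.5 in size; CPM are the UMIs of a gene per 1000000 UMIs of a lineage, not divided by gene length, since each UMI is 1 molecule read at its 3′ end. Of the members, 81 had enough counts for all 16 comparisons, 3 for some, and Rpl10l and Rpl39l for none. In BL/6 B cells 0 of 83 tested members were higher at 20 months and 1, Rpl29, was lower, where 2.34% of all tested genes were higher and 1.14% lower. In SM/J B cells 3 were higher (Rps27l, Rps19bp1 and Rps2) and 0 lower, against 13.6% and 17.6% of all genes; scaled by the trimmed mean of M values (TMM), 7 were higher, against 21.5% of all genes, and without clusters 3 and 22 the count was 1, against 2.53%. T cells of BL/6 had 0 of 82 higher (3.07% of all genes) and 1 lower, again Rpl29 (7.34%). T cells of SM/J had 0 higher (6.00%) and 0 lower (2.10%). Classical monocytes of BL/6 had 0 of 83 higher (4.78% of all genes) and 1 lower, Rpl29 (5.10%), and those of SM/J had 1 of 81 higher, Rps27rt (6.13%), and 0 lower (8.22%). In nonclassical monocytes of BL/6, 0 of 84 were higher (5.44% of all genes) and 3 lower, namely Rpl29, Rpl3l and Rpl15 (4.98%). In those of SM/J, 0 of 83 were higher (2.94%) and 0 lower (5.02%). None of these counts stood clearly above the share of all genes. Small shifts in 1 direction were common to most members by CPM in all but SM/J B cells. With TMM scaling the member median there was 0.17, and the median of all tested genes 0.11. In BL/6 the ratio was above 0 for 3 of 83 members in B cells (median -0.15, with 3433 of 5602 genes above 0 overall), for 75 of 82 in T cells (0.11; 2083 of 5438), for 15 of 83 in classical monocytes (-0.07; 3009 of 5708) and for 2 of 84 in nonclassical monocytes (-0.23; 3078 of 5640). In SM/J it was above 0 for 41 of 83 in B cells (2451 of 5412 genes overall), for 1 of 82 in T cells (-0.15; 2085 of 3434), for 79 of 81 in classical monocytes (0.14; 1503 of 2955) and for 8 of 83 in nonclassical monocytes (-0.11; 2568 of 5513).

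Between strains many members passed in lymphocytes. Reads of both strains were counted on the same reference genome, which may fit BL/6 and SM/J unequally. The part of this fit in the strain ratios of single genes, here and below, was not tested. In B cells at 12 months 38 of 83 were higher in SM/J and 3 lower, where 11.0% of all tested genes were higher and 17.8% lower. At 20 months 49 were higher and 1 lower, against 22.2% and 36.2%, and with TMM scaling 75 were higher, against 34.2% of all genes. The member median was 0.45 at 12 months and 0.60 at 20 months, with all-gene medians of -0.10 and -0.22. The lists at the 2 ages shared 34 genes, 89.5% of the first and 69.4% of the second. In T cells at 12 months 34 of 82 were higher and 3 lower, against 6.11% and 19.0% of all genes, with a member median of 0.46; TMM scaling gave 62 higher, against 9.87% of all genes. At 20 months 7 were higher and 3 lower, against 8.58% and 10.3%, which for the higher side is near the background, and the member median was 0.20. TMM scaling brought the 7 down to 2, against 6.02% of all genes. The loss of aliquot 2 of SM/J at 20 months also brought the 7 down to 2. Scaling without the members' own UMIs brought the count up to 12, against 12.5% of all genes. The median over all tested genes itself moved by 0.33 in B cells at 20 months and by 0.12 in T cells at 12 months under TMM, and by -0.17 to -0.10 in the 2 kinds of monocytes. Scaling without the members' own UMIs moved it by 0.14 and 0.17 in B cells and by 0.19 in T cells at 12 months. Rpl6, Rpl15, Rps27l and Rps29 were among the members higher by the threshold in all 4 of these lists.

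In monocytes at 12 months more members were lower than higher. Classical monocytes of SM/J had 0 members higher and 13 of 82 lower at 12 months, against 15.7% of all genes higher and 9.55% lower. At 20 months 1 was higher and 5 of 83 lower, against 14.5% and 9.01%, so that the lower count was not above the background. The first count was 32 with TMM scaling, with 16.3% of all genes lower. Nonclassical monocytes had 0 higher and 12 of 83 lower at 12 months, against 14.7% and 8.13% of all genes, and 1 higher and 6 lower at 20 months, against 10.3% and 7.51%, again near the background for the lower side. The 12 became 26 with TMM scaling, where 12.9% of all genes were lower, and 30 without cluster 23, where 8.28% were. Rpl29, Rps2, Rps14 and Rps18 were lower in all 4 comparisons. Rps14, a small-subunit protein, was 2317 CPM in nonclassical monocytes of BL/6 at 12 months, 2131 at 20 months, and 1285 and 1184 in SM/J. The log2 ratio of Rps14 was -0.85 at both ages there, and 0.09 and 0.10 in B cells.

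**Figure D3:**
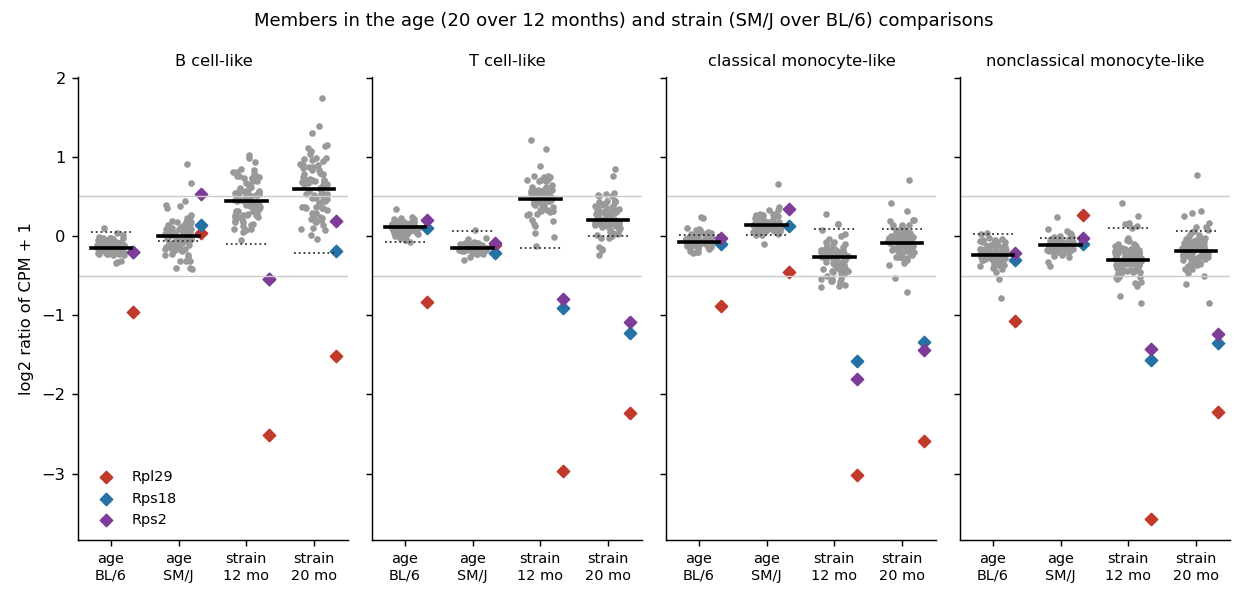
Log2 ratio of CPM + 1 of each ribosomal protein gene (dots) in 4 lineages for age in each strain (20 over 12 months) and strain at each age (SM/J over BL/6); solid bars give the member median, dotted bars the median of all tested genes, and grey lines 0.5 and -0.5. The dots of B cells lie mostly above 0 in the strain columns, with medians of 0.45 and 0.60, while Rpl29 (red) lies far below the rest in all strain columns.

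The stalk of the large subunit recruits the translation factors; it is built from Rplp0 with copies of Rplp1 and Rplp2 on a base that includes Rpl12. Rplp0 differed most of these 4 in B cells: 1965 CPM (BL/6, 12 months; aliquots 1954 to 1976), 1735 (1702 to 1753), 3987 (3935 to 4062) and 4569 (4499 to 4655). The SM/J aliquots all lay far above those of BL/6, with log2 ratios of 1.02 and 1.40. Rplp1 was also higher, at 4028, 3592, 5826 and 5739 CPM (0.53 and 0.68). Its partner Rplp2 was not, at 2414, 2165, 2757 and 2482 CPM (0.19 and 0.20). In T cells the log2 ratio of Rplp0 was 0.71 and 0.38 and that of Rplp1 0.59 and 0.29. The 3 stalk proteins therefore did not move by a common factor between strains. Of the pair that carries 5S ribosomal RNA into the large subunit, Rpl5 was higher in SM/J B cells at 12 months (1270.5 against 2137 CPM, 0.75) and Rpl11 at 20 months (1990 against 2892 CPM, 0.54). The other value of each pair stayed under the threshold, at 0.46 for Rpl5 and 0.39 for Rpl11.

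Around the exit of the tunnel through which new proteins leave the ribosome sit Rpl17, Rpl19, Rpl23a, Rpl26, Rpl31 and Rpl35. In B cells 2 of these 6 were higher in SM/J at 12 months (11.0% of all tested genes), Rpl17 (0.52) and Rpl23a (0.62), the second being the docking site of the signal recognition particle. At 20 months 5 of 6 were higher (22.2% of all genes), with Rpl35 at 0.75 and Rpl31 at 0.72; Rpl26 had 0.25 at both ages. In T cells 1 of the 6 was higher at 12 months (6.11% of all genes) and 0 at 20 months (8.58%). Along the path of the messenger on the small subunit, Rps28 was the highest of 6 genes in B cells, at 3628, 3342, 6542 and 6873 CPM (0.85 and 1.04). Rps28 lies at the messenger exit, as does Rps26 (0.42 and 0.37). Rpsa was 0.57 and 0.70, Rps3, at the entry, 0.47 and 0.70, and the decoding-centre protein Rps23 0.32 and 0.30. The sixth, Rps2, was lower in SM/J at 12 months (-0.55) and not at 20 months (0.19), and is described below. Over whole subunits, where 11.0% of all tested genes were higher in B cells at 12 months, 22.2% at 20 months and 6.11% in T cells at 12 months, 19 of 46 large-subunit and 15 of 31 small-subunit genes were higher in SM/J B cells at 12 months, and 30 of 46 and 16 of 31 at 20 months. In T cells at 12 months it was 14 of 46 and 17 of 31. At 20 months 7 of all 82 tested members were higher in T cells, near the 8.58% of all genes.

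Other members with large strain ratios in lymphocytes came from both subunits. Rps29, a small zinc-binding protein of the small subunit and the most abundant member, was 7165 CPM (aliquots 6779.7 to 7479), 8008 (7818 to 8193), 15304 (15109.9 to 15526) and 13599.5 (12755 to 14595) in T cells. No SM/J aliquot came near the BL/6 range, and the log2 ratios were 1.09 and 0.76. Rps29 was also higher in B cells (6309, 5698, 10478 and 9378 CPM; 0.73 and 0.72) but under the threshold in classical monocytes (5855, 5768, 7114 and 7699 CPM; 0.28 and 0.42), where the member medians were -0.27 and -0.08. Rpl41, the shortest ribosomal protein, was 2999.7, 2771, 5347 and 6809.7 CPM in B cells, with log2 ratios of 0.83 and 1.30. Rpl41 has a copy, Gm10076, that the files count apart and that moved with it (270.03, 248, 355 and 435 CPM). Rpl6, of the large subunit, had ratios of 0.99 and 1.15 in B cells. Rps6, the subunit protein phosphorylated by S6 kinase, was 1409, 1287, 2033 and 2032 CPM in B cells (0.53 and 0.66).

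Paralogs are second genes for a subunit protein, usually at a low level. Rps27l, a paralog of Rps27 known as a target of p53, had the largest strain ratio of any member in B cells at 20 months. It was 79.9 CPM (aliquots 75.1 to 83.9), 78.4 (70.4 to 91.8), 141 (137 to 147) and 265 (256 to 271). Within SM/J the 2 ages did not overlap (log2 0.90), within BL/6 they did (-0.03), and the strain ratios were 0.81 and 1.74. Its parent Rps27 was at 6043, 5365, 7871 and 5928 CPM, with an age ratio of the opposite sign in SM/J (-0.41). In T cells Rps27l was 89.4, 89.1, 138 and 127 CPM. Classical monocytes had more of it in BL/6 than in SM/J, at 262, 276, 217 and 225 CPM. Rps27rt, a retrotransposed gene for Rps27 that may share reads with its parent, was 126, 132, 294 and 238 CPM in T cells (1.22 and 0.84). Rps27 itself had 5666, 6408, 10433 and 9227 CPM there (0.88 and 0.53). Rpl22l1, the paralog of Rpl22, was 601, 762, 984 and 1038 CPM in T cells (0.71 and 0.45). Rpl36al was 486, 471, 693 and 911 CPM in B cells (0.51 and 0.95). Rpl3l, known as the striated-muscle form of Rpl3, was found above 20 CPM in nonclassical monocytes only among the 4 lineages, at 52.4, 29.9, 58.3 and 51.7 CPM. Classical monocytes had 3.39 to 11.1 CPM of Rpl3l. In BL/6 its ratio with age was -0.79 (-1.16 to -0.45). Rps19bp1, the binding protein, was 22.3, 24.0, 27.2 and 43.7 CPM in B cells, with a ratio of 0.67 with age in SM/J.

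Rpl29, a large-subunit protein whose gene lies on the plus strand at chr9:106429454-106431568 (GRCm38), was lower in SM/J in every lineage and differed most of all members between strains in T cells and in both kinds of monocytes. In B cells it was 819.6 CPM in BL/6 at 12 months (aliquots 794, 829 and 836), 422 at 20 months (411, 421 and 444), 143 in the younger SM/J library (129.8, 142 and 156) and 147 in the older (142, 146 and 152). The 12-month BL/6 aliquots lay far above all others, the 20-month BL/6 aliquots in between, and the 2 SM/J libraries overlapped. T cells gave the same picture with 1045 CPM (1002, 1059.6 and 1080.3), 584 (565, 578 and 611), 133 (119.9, 134 and 147) and 123 (105, 107 and 159). Classical monocytes had 849, 459, 104 and 75.3 CPM of Rpl29, and nonclassical monocytes 455, 215, 37.4 and 45.3. NK cells had 756, 277, 47.0 and 102 CPM. The log2 ratio with age in BL/6 was -0.95 (-1.04 to -0.88) in B cells, -0.84 (-0.93 to -0.75) in T cells, -0.89 (-0.98 to -0.80) in classical and -1.08 (-1.21 to -0.96) in nonclassical monocytes. All 15 clusters with enough cells were lower at 20 months in BL/6, 14 of them by at least 0.5; the exception was the platelets (-0.15, -2.06 to 1.74). In SM/J the age ratio was 0.04 in B cells and -0.11 in T cells, and its interval spanned 0 in both monocyte lineages. By cluster it was lower in 10 of 13, in 5 of them by at least 0.5, including the unnamed cluster 20, which had no Rpl29 UMI in its 24 cells at 20 months. The interval lay below 0 in B cell cluster 9 (-0.52) and classical monocyte cluster 17 (-0.58), and above 0 in nonclassical monocyte cluster 6 (0.52). Between strains Rpl29 was lower in SM/J in all 10 clusters that could be compared at 12 months, by -3.98 to -2.41 on the log2 scale, and in all 9 at 20 months, by -3.13 to -1.44. The annotation holds 32 near-identical copies of Rpl29, more than for most members, and 1 of them, Gm3550, is counted in the files. Gm3550 was at 0.696 to 1.89 CPM in B cells of the 4 libraries, near 0 in both strains. Reads from copies that the files do not count cannot be placed with these tables. The part of the reference genome in the strain ratio of Rpl29 was not tested.

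**Figure D4:**
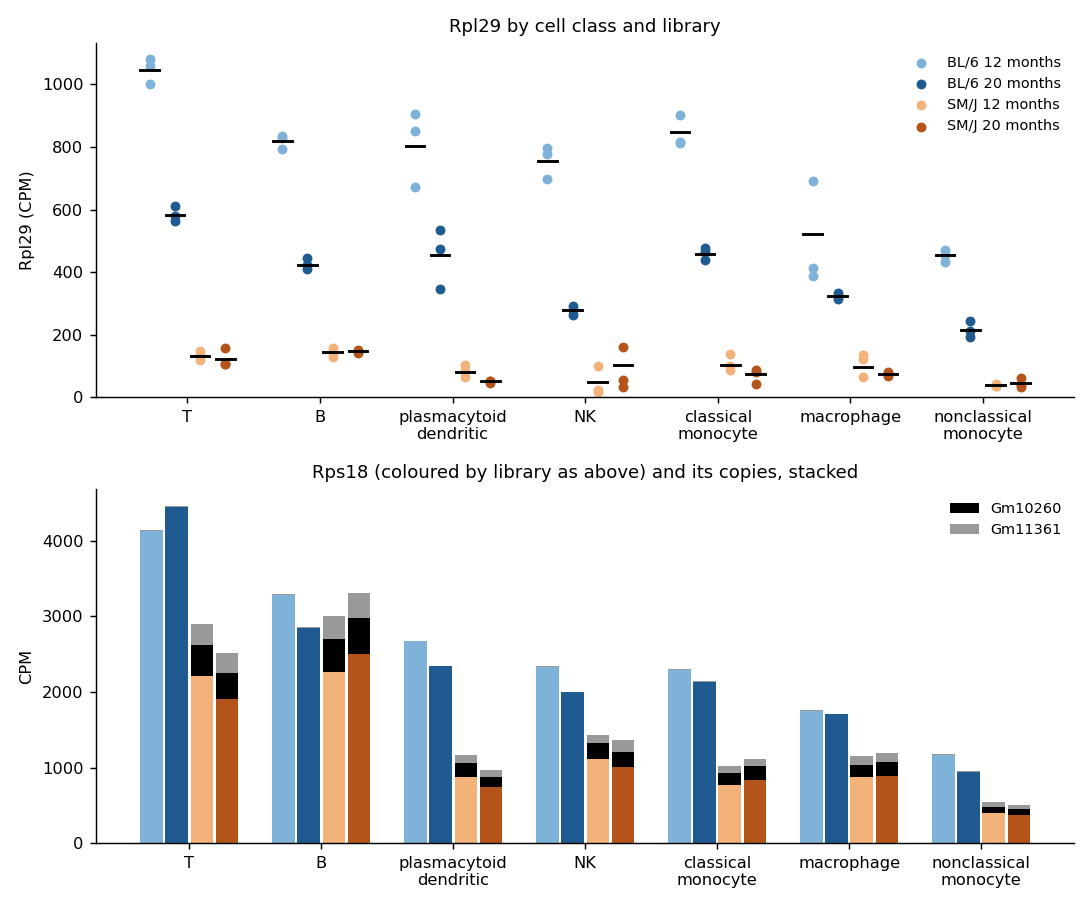
Top: Rpl29 in CPM by lineage and library, with dots for aliquots and lines for the library value; bottom: stacked CPM of Rps18 and of its counted copies Gm10260 (black) and Gm11361 (grey). Rpl29 in B cells steps from 819.6 CPM to 422, 143 and 147 CPM, and the black and grey parts are visible in SM/J libraries alone.

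Rps18, a protein in the head of the small subunit, was counted beside near-identical copies to which molecules were assigned mainly in SM/J. Its gene lies on the minus strand at chr17:33951999-33956001, and the files count 2 near-identical copies of it on chromosome 13: Gm10260 at chr13:97760072-97760632 (minus strand, 99.1% identical over 545 aligned bases) and Gm11361 at chr13:28257528-28258134 (plus strand, 99.3% over 540). The 456 coding bases differ at 4 positions in Gm10260 (T186C, A337C, G371A and G431A, the base of Rps18 first, counted from 1 at the first coding base) and at 3 in Gm11361 (T11A, A171C and A337C). The stretch from position 324 to 383 is printed to show how alike the 3 are, with the positions that differ in any of them in capitals.
Rps18: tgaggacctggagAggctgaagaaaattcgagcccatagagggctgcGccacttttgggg
Gm10260: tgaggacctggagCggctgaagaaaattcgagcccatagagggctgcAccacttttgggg
Gm11361: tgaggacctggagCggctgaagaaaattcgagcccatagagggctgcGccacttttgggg
In B cells Gm10260 was 0.580 and 0.782 CPM in BL/6 and 439.6 and 484 CPM in SM/J, and Gm11361 was 6.84, 3.65, 299 and 327 CPM. The 2 copies together made up 22.2% to 27.5% of the summed counts in SM/J over 7 lineages, and 0% to 0.367% in BL/6. Whether these molecules came from the copies or from Rps18 itself was not tested. Rps18 itself was 3282, 2850.2, 2262 and 2498 CPM in B cells and 4132, 4448, 2207 and 1905 in T cells. Its strain ratio was -0.54 and -0.19 in B cells, and -0.13 and 0.21 with the copies added, a change of sign at 20 months. In T cells it was -0.90 and -1.22, and with the copies -0.51 and -0.83. In classical monocytes -1.58 and -1.34 became -1.17 and -0.94, and in nonclassical monocytes -1.56 and -1.35 became -1.11 and -0.89. Adding the copies thus made the strain ratio smaller in T cells and monocytes but did not remove it.

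Rps2, a small-subunit protein at the messenger entry, was the other member lower in SM/J in most lineages. In classical monocytes it was 1300.5, 1281, 373 and 472 CPM (-1.80 and -1.44), and in nonclassical monocytes 687, 593, 254 and 251 CPM (-1.43 and -1.24). T cells had 1972, 2264, 1138 and 1067 CPM of Rps2 (-0.79 and -1.08). B cells differed from these: 1603 CPM (aliquots 1559.5 to 1635), 1399 (1375 to 1428), 1097 (1059 to 1124) and 1590.5 (1572 to 1601). There the SM/J value was lower at 12 months (-0.55) and above that of BL/6 at 20 months (0.19). The annotation holds 32 copies of Rps2, of which none is counted in the files. Over all members the median number of annotated copies was 4, and 10 members had a counted copy.

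**Figure D5:**
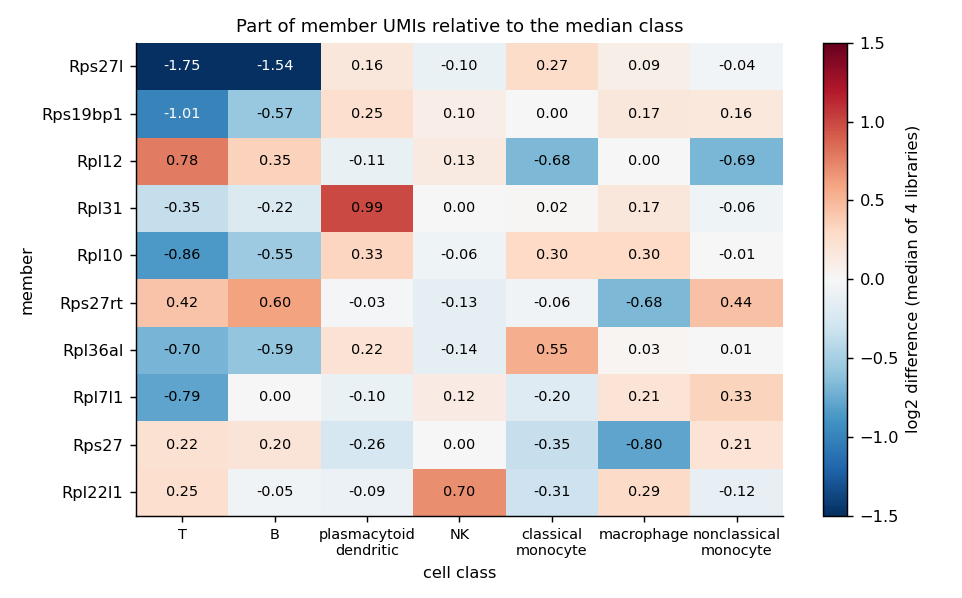
Log2 of each gene's part of all ribosomal protein UMIs in a lineage relative to the median of 7 lineages (rows: 10 members, columns: lineages, median of the 4 libraries). The value is printed in each cell. Rpl12 is high in T cells (0.78) and low in monocytes (-0.68 and -0.69), Rpl31 is high in plasmacytoid dendritic cells (0.99), and Rps27l is low in T cells (-1.75) and B cells (-1.54).

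Beyond the total, the composition of the ribosomal protein messengers differed between lineages for a few genes. The small subunit took between 44.7% and 48.9% of member UMIs in all 28 combinations of lineage and library. The range of a gene's part across 7 lineages, on the log2 scale, had a median of 0.54 over 83 members. It was largest for Rps27l (2.22), followed by Rps19bp1 (1.59), Rpl12 (1.53), Rpl31 (1.34), Rpl10 (1.29) and Rps27rt (1.28). The value of Rps19bp1 rests on few UMIs. This gene made up at most 0.0321% of member UMIs and had enough counts for 7 of the 16 comparisons. Rpl12, the base of the stalk, took its largest part in T cells in all 4 libraries: 4329, 5004, 6064 and 5608 CPM, against 1127, 1072, 828 and 987 in classical and 674, 661, 664 and 560.2 in nonclassical monocytes. Rpl31, at the tunnel exit, was highest in plasmacytoid dendritic cells in all 4 libraries, at 1162, 1065, 1855 and 1092 CPM against 645, 708, 963 and 873 in T cells. Rpl10, the protein that completes the large subunit, was 1064, 1115, 1093 and 987 CPM in T cells, 1512, 1557, 1012 and 1209 in classical monocytes and 798, 668, 473 and 559 in nonclassical monocytes. Plasmacytoid dendritic cells had 1781, 1520.5, 1379 and 1043 CPM of Rpl10. Its part of the member UMIs was lowest in T cells. The largest parts overall were those of Rps29 (3.97%), Rps24 (2.41%), Rpl13 (2.22%), Rps27 (2.22%) and Rpl37a (2.10%). Among the 83 members with a part computed, which leave out Rpl3l, Rpl10l and Rpl39l, the smallest were those of Rps19bp1 (0.0161%), Rpl7l1 (0.0256%), Rps27rt (0.0499%), Rps27l (0.127%) and Rpl29 (0.140%).

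Genes that work with the ribosomal proteins were read in the same comparisons, and their counts stand against the same shares of all tested genes. In B cells these were 11.0% higher and 17.8% lower at 12 months, and 22.2% and 36.2% at 20 months. In T cells they were 6.11% and 19.0%, and 8.58% and 10.3%. Among subunit genes outside the naming rule, Rack1, the signalling scaffold of the small subunit, was 1355, 1277, 2369 and 1997 CPM in B cells (0.81 and 0.65). Fau, which codes for a small-subunit protein fused to a ubiquitin-like one, had ratios of 0.10 and -0.01 there. Among 18 other genes with TOP messengers, mostly for translation factors, 10 were higher and 0 lower in SM/J B cells at 12 months (median 0.53). At 20 months 15 were higher and 0 lower (median 0.78). Elongation factor Eef1a1 went from 2623 to 4874 CPM at 12 months (0.89), and the poly(A)-binding protein Pabpc1 from 271 to 596 at 20 months (1.14). In T cells the counts were 2 and 0 at 12 months and 1 and 3 at 20 months, where the RNA host genes Snhg8 (-0.76) and Gas5 (-0.66) were lower. Ribosome assembly factors gave 9 higher and 0 lower of 22 in B cells at 12 months and 12 and 1 of 23 at 20 months, with Nhp2, a protein of the small nucleolar particles, at 42.2 and 102 CPM in the latter (1.25). In T cells 2 of 20 and 1 of 18 were higher. Genes for the separate ribosomes of the mitochondrion gave 8 higher of 61 in B cells at 12 months and 38 of 62 at 20 months, with medians of 0.30 and 0.62; the first count is near the background. There were 0 of 51 and 3 of 44 higher in T cells. Classical monocytes had 11 of 45 and 15 of 58 of these lower in SM/J, against 9.55% and 9.01% of all genes. The growth control genes did not lean one way in B cells, with 2 higher and 2 lower of 16 at 12 months and 4 and 5 of 16 at 20 months. Among them Myc, a transcription factor that drives ribosome production, was 26.6, 27.9, 108 and 53.6 CPM in B cells, with strain ratios of 1.99 and 0.92.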

How the data were processed

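Single-cell RNA was measured in 2 multiplexed 10x samples that give 4 libraries (1 per strain and age). The deposited matrices hold raw UMI counts, made with Cell Ranger 7.0.1 per the file headers, on mm10 per the submitters' processing notes, which also name Seurat 4.3.0. Cells with at least 500 UMIs, 200 genes and at most 10% mitochondrial UMIs were kept, and doublets called per 10x sample (Scrublet in scanpy 1.11.5, expected rate 0.06) were removed (0.775% to 1.34%). Log-scaled counts of 2000 variable genes without members gave 30 components, 15 neighbours and Leiden clusters at resolution 1. Clusters were named from 13 fixed marker lists, at least 3 markers each. The tag counts define the aliquots, and 48 cells had none. Counts were summed per library and lineage. Shares, levels and parts were described for lineages of at least 30 cells, and genes were compared in those of at least 100; the classical monocytes of SM/J at 20 months were kept with 99, a choice made after seeing the data. Genes with at least 100 UMIs in a comparison and a mean of 20 CPM were tested. Intervals (Clopper-Pearson for shares, Newcombe for their differences, conditional binomial for ratios, all 95%) cover counting error only. TMM factors came from edgeR 4.0.16, and scripts were tested on simulated data. Named genes were the 3 highest and 3 lowest members of each comparison, the 5 largest and smallest parts, the 6 largest ranges across lineages, the role lists, and at most 2 highest and 2 lowest of each other list. Rps6, Rps14, Rpl6 and Rpl15 were also shown after their values were seen, where the rule did not name them. Copies are annotated transcripts at least 95% identical over 200 bases, or over a large part of the member's transcript where that is short (GENCODE M21). Members and lists were chosen with earlier results of these data known. Some items are not reported here.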

Additional observations from a re-analysis of the deposited data

Results flagged for a closer look

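In T cells the ribosomal protein share changed with age by 1.89 points in BL/6 and by -3.33 points in SM/J. Every aliquot at 20 months lay above those at 12 months in BL/6 and below them in SM/J. In classical monocytes the change was -0.815 points in BL/6 and 1.43 points in SM/J, with the aliquots apart in the same sense. Both pairs stand out because the strains moved in opposite directions. With T cell clusters weighted equally the T cell changes had the same sign, -0.690 points in BL/6 and -0.788 in SM/J. The difference between strains was not tested, as there is 1 library per strain and age.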

How the results depend on the processing

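No paired analysis was possible because each strain and age is 1 library, and the replicate number only names a sample. Values are points of share, in the order age in BL/6, age in SM/J, strain at 12 and at 20 months, and those not listed stayed within the counting interval of the main value. Clustered at 1000 UMIs per cell, where clusters of 1249 and 886 cells with B cell markers stayed unnamed and left the B cells, these had -2.19, 0.434 (opposite sign), 5.17 and 7.80, T cells 1.99 for age in BL/6, classical monocytes 0.678 (age in SM/J) and -1.499 (strain, 20 months), and nonclassical monocytes -0.322 (age in SM/J), -2.68 and -1.42. With clusters weighted equally B cells had -1.82, -1.39, 2.10 and 3.05 (the last from cluster 2 alone), T cells -0.690 (opposite sign), -0.788, 5.82 and 5.72, and nonclassical monocytes -0.00262 for age in SM/J; no cluster could be compared between strains in monocytes. Without mitochondrial and antigen receptor genes in the total, B cells had -2.34, 0.242 (opposite sign), 7.93 and 10.5, T cells 2.00 (age in BL/6), 10.02 and 4.58, classical monocytes -3.12 and -0.808 between strains, and nonclassical -2.11 at 12 months. With members among the clustering genes T cells had 2.26 (age in BL/6), 9.86 and 4.16, classical monocytes -0.689 (age in BL/6) and -2.76 (strain, 12 months), and nonclassical -1.25, -0.701, -1.54 and -0.985. A mitochondrial limit of 20% gave -0.538 (age in SM/J), 7.29 and 8.85 in B cells, 2.18 (age in BL/6) and 4.09 (strain, 20 months) in T cells, -3.17 and -0.894 between strains in classical, and -1.47, -0.776, -1.97 and -1.27 in nonclassical monocytes. A limit of 5% gave -1.62 (age in BL/6), 6.89 and 8.13 in B cells, and 3.89, -3.98, 11.2 and 3.34 in T cells. It gave -1.20, 1.21 and -3.13 (strain, 12 months) in classical, and -1.13, -1.04, -1.24 and -1.15 in nonclassical monocytes. Under that limit a cluster of 352 cells with Ccr2 and Tgfbi stayed unnamed. A cluster of 36 cells led by Cd22 and Sox5 was counted among the nonclassical monocytes. Chosen after seeing the data, leaving out cluster 23 gave -0.0238 (age in SM/J), -2.88 and -1.32 in nonclassical monocytes, and leaving out clusters 3 and 22 gave 0.539 (age in SM/J, opposite sign), 7.29 and 9.99 in B cells.

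Counts of members are listed where they differed from the main count by over 1.5 times. TMM scaling gave 7 higher for B cell age in SM/J (21.5% of all genes) and 75 for B cell strain at 20 months (34.2%). It gave 62 and 2 higher for T cell strain at 12 and 20 months (9.87% and 6.02%). For strain at 12 months it gave 32 and 26 lower in classical and nonclassical monocytes (16.3% and 12.9%). Scaling without member UMIs gave 68 and 12 higher for T cell strain (12.6% and 12.5% of all genes), 52 and 64 for B cell strain (under 1.5 times; 17.0% and 28.2% of all genes higher, 11.0% and 28.7% lower) and 1 lower for B cell strain at 12 months. With no filter on low counts, classical monocytes had 1, 4, 1 and 3 higher, and nonclassical 1 higher for age in SM/J. There B cells had 2 lower for age in BL/6, and T cells 2 and 1 lower for age. The shares of all genes were not computed with no filter. Without cluster 23, nonclassical monocytes had 1 higher for age in SM/J (2.73% of all genes) and 30 lower for strain at 12 months (8.28%). Without clusters 3 and 22, B cells had 1 higher for age in SM/J (2.53%) and 2 lower for strain at 20 months (24.8%).

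Leaving out each aliquot in turn gave, for the share, ranges in B cells of -2.18 to -1.97, -0.482 to -0.164, 7.26 to 7.44 and 8.96 to 9.29, in T cells of 1.64 to 1.99, -4.52 to -2.59, 9.28 to 9.83 and 3.12 to 5.04, in classical monocytes of -0.994 to -0.514, 1.28 to 1.61, -3.13 to -2.65 and -0.842 to -0.582, and in nonclassical monocytes of -1.63 to -1.49, -0.813 to -0.518, -2.09 to -1.93 and -1.27 to -0.972. The count of higher members ranged from 36 to 38 and 48 to 50 for B cell strain at 12 and 20 months, from 30 to 37 and 2 to 7 for T cell strain, and from 0 to 1 for classical monocyte age in SM/J and nonclassical monocyte strain at 12 months. The count of lower members ranged from 10 to 12 and 4 to 5 for classical monocyte strain, from 3 to 4 and 0 to 1 for nonclassical monocyte age, from 10 to 12 and 5 to 7 for nonclassical monocyte strain, and from 0 to 1 for classical monocyte age in SM/J. All other ranges were of 1 value. The shares of all genes were not computed with an aliquot left out. The cause of these shifts was not tested. Genes under 20 CPM, such as Rpl10l and Rpl39l, lie beyond what this depth can compare.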
